A study of Mus musculus with 18 samples.

Results

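Type I interferon-stimulated genes were followed in neutrophils from the spleens of lupus-prone mice at 3 ages. The set is a list of 43 genes by symbol, known to be induced by type I interferon; the rule uses the symbols and no measured value, though the list was drawn up with earlier results of these data known. Of the 43 listed genes, 41 had a row in the count table, which holds 17941 gene symbols in all, and 40 had enough counts to be tested among the 10104 genes tested. Mx2 had 15 counts, all in 1 library at 14 weeks of age, and was not tested. Mx1 and Ifi44 were not analysed here.

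All mice were untreated females of the NZBWF1/J strain, the hybrid of New Zealand Black and New Zealand White mice, in which females come down with an autoimmune disease that resembles lupus as they grow older. Cells were taken at 14, 20 or 26 weeks of age, which the study describes as stages of disease, with 6 mice and 6 libraries per age and 1 library per mouse. There was no healthy strain or other treatment, so each comparison is between ages of the same strain and the youngest mice are the reference. Live single cells were sorted from each spleen as carrying Ly6G, CD11b and Ly6B at the surface and an intermediate amount of Ly6C, and polyadenylated RNA was sequenced from very small amounts of cDNA.

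Type I interferons signal through the receptor chains IFNAR1 and IFNAR2 and the kinases JAK1 and TYK2. These kinases activate STAT2, which enters a complex with IRF9 that binds a DNA element holding repeats of GAAA, and so induces a large set of genes, many of which act against viruses. A raised level of these genes in blood cells, called an interferon signature, is a known feature of human lupus, and neutrophils are among the cells that show it.

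Total counts per library ran from 5546624 to 17256379, and the library at 20 weeks replicate 3 stood apart, with counts in 8119 genes and 6 of the set at 0 (Ifit2, Stat2, Parp14, Eif2ak2, Slfn5 and Epsti1). Over log2 levels of all tested genes it correlated with the 5 others taken at 20 weeks at a median of 0.76. Levels below are CPM, which are counts scaled to a fixed library size, after adjustment for library composition. The sorted cells carried neutrophil markers at a high level: the 12 listed genes, among them S100a8, S100a9, Ly6g and Csf3r, summed to 136354 to 195751 CPM at 14 weeks, 48334 to 119440 at 20 weeks and 149726 to 292099 at 26 weeks. The 20-week mice were below all others in this sum, but not in each gene: Csf3r, the G-CSF receptor, had medians of 1869, 4118 and 1234 CPM at the 3 ages, with every 20-week mouse above all others, and Cxcr2 had medians of 1744, 1739 and 1158 CPM. Ngp, with medians of 56244, 29829 and 98632 CPM, and Ltf, with 52182, 18165 and 41053 CPM, are the largest terms of the sum. Macrophage and monocyte markers (8 genes) had sums of 105 to 360.2 CPM at 14 weeks, 359.8 to 807 at 20 weeks and 103 to 298 at 26 weeks. Csf1r, with medians of 192, 496 and 115 CPM, and Adgre1, with 42.9, 148 and 36.1 CPM, make up nearly all of this sum, and the median of each of the others was at most 0.118 CPM. C1qa and C1qb were at 0 in all libraries of 14 and 26 weeks, as were Cx3cr1 and Ccr2 at 14 weeks. Plasma cell markers (6 genes) summed to 0 to 13.9, 17.9 to 1708 and 1.98 to 479 CPM, T cell markers (5 genes) to 117 to 148, 50 to 102 and 93.4 to 382 CPM, and B cell markers (5 genes) to at most 20.5, 58.6 and 12.2 CPM. Cd3d, with medians of 128, 66.1 and 181 CPM, made up nearly all of the T cell sum. The median of each other T cell marker was at most 1.62 CPM at any age. Cd3e and Cd8a were at 0 in all 20-week libraries. Natural killer cell (3 genes), conventional dendritic cell (5 genes), eosinophil (3 genes) and erythroid (4 genes) markers summed to at most 13.2, 5.52, 52.5 and 219.5 CPM in any library. Siglecf alone gave the 52.5 CPM of the eosinophil markers. The 3 plasmacytoid dendritic cell markers with a row (Siglech, Ccr9 and Pacsin1), which mark the main interferon-making cell, were at 0 in all 14-week libraries and summed to at most 2.91 CPM at 20 weeks and 1.89 CPM at 26 weeks. In bulk RNA a change in the share of cells that express a gene and a change in RNA per cell cannot be told apart.

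The 300 bases around the start site of each gene were examined for the repeat that the activated complex binds, here GAAA, any 2 bases, GAAA, on either strand. Promoter entries, from 250 bases before to 50 bases after the start in RefSeq (GRCm38.p6), were found for 34 of the 43 listed genes. The repeat stood in 14 of the 34 (41.2%), against 3.99% of 27025 genes with an entry and 3.95% of the 7244 of these that were tested here. The sequences below come from genes whose levels did not pass the test (Isg15, Ifit1, Ifit3) and from genes whose levels changed with age (Oas1a, Oas3, Ifitm2), to show what the promoters of both kinds hold. Each is printed 5′ to 3′ on the strand of the gene, with the repeat, or its reverse complement, in capitals.
Isg15, chr4:156200855-156200916, minus strand: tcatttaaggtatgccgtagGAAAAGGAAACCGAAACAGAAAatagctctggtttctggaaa
Ifit1, chr19:34640765-34640833, plus strand: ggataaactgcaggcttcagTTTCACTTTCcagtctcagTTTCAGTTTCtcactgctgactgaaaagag
Ifit3, chr19:34583353-34583436, plus strand: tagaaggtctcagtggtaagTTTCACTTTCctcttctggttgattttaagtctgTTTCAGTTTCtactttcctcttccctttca
Oas1a, chr5:120907526-120907565, minus strand: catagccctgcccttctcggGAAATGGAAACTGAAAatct
Oas3, chr5:120777705-120777754, minus strand: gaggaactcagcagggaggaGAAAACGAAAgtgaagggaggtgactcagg
Ifitm2, chr7:140955978-140956027, minus strand: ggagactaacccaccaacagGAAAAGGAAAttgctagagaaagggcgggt

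The Isg15 promoter held 3 overlapping copies of the repeat, and those of Ifit1, Ifit3 and Oas1a held 2 each. Among the genes of the set whose level passed the test in at least 1 comparison of ages, 5 of 14 with a promoter entry held the repeat (Eif2ak2, Ifitm2, Ifitm3, Oas1a and Oas3), and among the others 9 of 19 did (Bst2, Ifit1, Ifit3, Isg15, Rsad2, Slfn5, Stat2, Trim21 and Trim30a). A match describes these letters and not a bound site, and the window leaves out more distant elements.

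The set did not move as a block with age. Its summed level ran from 3427 to 5335 CPM at 14 weeks, 3851 to 4699 CPM at 20 weeks and 3312 to 5129 CPM at 26 weeks, so the ages overlapped. Among the largest terms of this sum, Ifitm2 and Ifitm3 rose from 14 to 26 weeks while Slfn1 and Sp100 fell. The sum therefore says little about the scarcer genes. In edgeR's quasi-likelihood test with Benjamini-Hochberg adjustment over all tested genes, at an adjusted p under 0.05, 17 of the 40 genes changed in at least 1 of the 3 comparisons of ages and 23 in none, while 24.8% of all tested genes changed in at least 1. The 23 include Isg15, Ifit1, Ifit2, Ifit3, Irf7, Stat2, Rsad2, Usp18 and Rtp4, and the 17 include Ifi27, Oas1a, Oas3, Oasl2 and Ifitm3.

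From 14 to 20 weeks, Ifitm2 and Oasl2 rose and Samd9l, Sp100 and Oas1a fell. These 5 genes are 12.5% of the set, against 10.2% of all tested genes, with 4.93% of all tested genes higher and 5.27% lower. The median log2 change was 0.00 over the 40 genes and -0.02 over all tested genes. From 14 to 26 weeks, Ifitm1, Ifitm2, Ifitm3 and Ifi27l2a rose and Samd9l, Sp100, Oas3, Cmpk2, Adar and Slfn1 fell. These 10 genes are 25% of the set, against 11.0% of all tested genes, of which 5.45% were higher and 5.54% lower, and the median log2 change was -0.21 over the set and 0.04 over all tested genes. From 20 to 26 weeks, Ifitm3, Ifi27, Ifi27l2a, Oas1a, Trim25, Eif2ak2 and Parp14 rose and Irf9, Oasl2 and Cmpk2 fell. These 10 genes are again 25% of the set, against 16.0% of all tested genes, of which 8.03% were higher and 7.98% lower, and the median log2 change was -0.25 over the set and 0.05 over all tested genes. The comparisons share mice, so they are not independent of each other. The neutrophil marker sum was lowest at 20 weeks, and the macrophage and monocyte sum was highest there by its median. The medians of Ifitm3, Ifi27, Ifi27l2a, Oas1a, Trim25, Eif2ak2, Parp14, Samd9l and Sp100 were also lowest at 20 weeks. Those of Oasl2 and Irf9 were highest there. Of these genes, Oas1a and Oasl2 alone passed the test both from 14 to 20 weeks and from 20 to 26 weeks. Samd9l and Sp100 passed only the first of these comparisons, and the others only the second. The part of the marker sums in these changes was not tested.

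**Figure D1:**
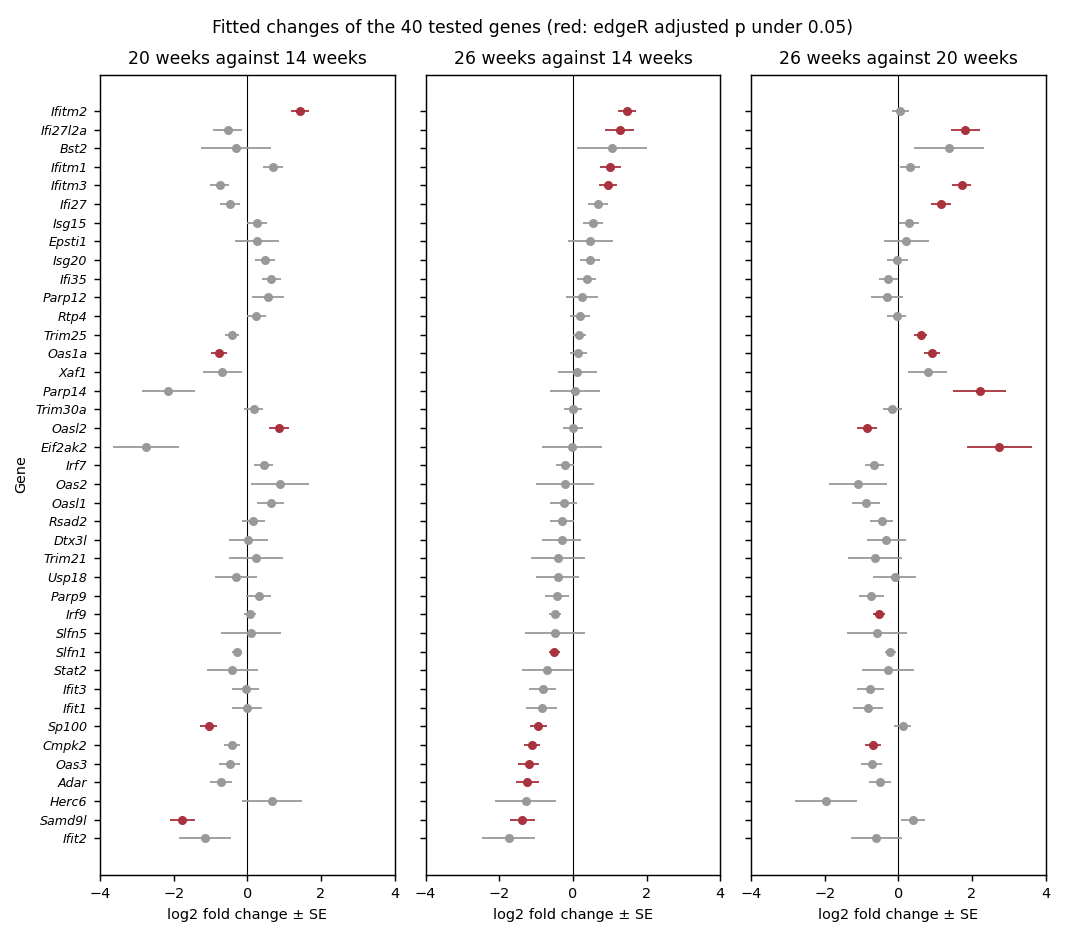
Log2 fold change (horizontal axis) with its standard error for each of the 40 tested genes (vertical axis) in the 3 comparisons of ages, with genes at an edgeR adjusted p under 0.05 in red. The genes with red points lie on both sides of 0 in every comparison: 2 higher and 3 lower from 14 to 20 weeks, 4 and 6 from 14 to 26 weeks, and 7 and 3 from 20 to 26 weeks.

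The library at 20 weeks replicate 3 bears on some of these counts. Without it, 1139, 1461 and 1809 of 10423 tested genes were called in the 3 comparisons, against 1030, 1111 and 1617 of 10104 with it. In the fits without it, 1 gene of the set was higher and 6 were lower from 14 to 20 weeks, where Oas3 fell by 0.85 (log2 scale, adjusted p = 0.0201), Parp14 fell by 1.89 (adjusted p = 0.0328) and Eif2ak2 fell by 2.5 (adjusted p = 0.0482) and the change of Oasl2 lost its call. From 20 to 26 weeks 7 genes were then higher and 1 was lower, the calls of Oasl2 and Cmpk2 being lost. From 14 to 26 weeks 4 were higher and 8 lower, with Ifit2 (adjusted p = 0.0160) and Irf9 (adjusted p = 0.0446) added to the genes that fell.

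Of the interferon-induced transmembrane genes, Ifitm2 and Ifitm3 had the highest levels of the set, and all 3 rose from 14 to 26 weeks. They encode small membrane proteins that block the fusion of viruses with the cell, and lie together on chromosome 7 (GRCm38), with Ifitm2 at 140954837 to 140955987, Ifitm1 at 140967221 to 140969825 and Ifitm3 at 141009586 to 141010770. In CPM per kilobase of merged exons, the scale on which genes can be compared, Ifitm3 had the highest level of the set at 14 weeks (617 ± 135 SD, n = 6) and 26 weeks (1197 ± 584), and Ifitm2 at 20 weeks (1111 ± 275). At 26 weeks the 2 genes did not differ beyond this spread, with Ifitm2 at 1153 ± 437. Slfn1 came next at 14 weeks, with 323 CPM per kilobase.

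Ifitm2 ranged from 208 to 343 CPM with a median of 254 at 14 weeks, from 497 to 997 with a median of 703 at 20 weeks, and from 298 to 1061 with a median of 787 at 26 weeks. All 6 mice at 20 weeks and 5 of 6 at 26 weeks were above every mouse at 14 weeks, the exception at 26 weeks being replicate 4. The log2 change from 14 weeks was 1.43 ± 0.25 (SE) at 20 weeks (adjusted p = 0.00126) and 1.48 ± 0.25 at 26 weeks (adjusted p = 0.00155), and from 20 to 26 weeks it was 0.05 ± 0.24 (adjusted p = 0.918). Of the 100-base windows of Ifitm2 transcripts, 34.9% also occur in another gene, mostly the overlapping model Gm45717, so its counts depend on how such reads were assigned.

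Ifitm3 took a different course. It ranged from 329.7 to 583 CPM with a median of 408 at 14 weeks, from 201 to 291 with a median of 241 at 20 weeks, and from 355 to 1388 with a median of 794 at 26 weeks. Every mouse at 20 weeks was below every mouse at both other ages, and 4 of 6 mice at 26 weeks were above all mice at 14 weeks. From 20 to 26 weeks the log2 change was 1.71 ± 0.26 (adjusted p = 0.000367). The change from 14 to 20 weeks was -0.76 ± 0.25 (adjusted p = 0.0642), short of the threshold although the groups did not overlap, and it passed with a correction for gene length (-0.91, adjusted p = 0.00239). From 14 to 26 weeks it was 0.96 ± 0.25 (adjusted p = 0.0198), a call lost without 14 weeks replicate 4 or without 26 weeks replicates 1 or 5 (adjusted p up to 0.0589).

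Ifitm1 ranged from 71.2 to 157 CPM with a median of 119 at 14 weeks, from 143 to 249.8 with a median of 172 at 20 weeks, and from 103 to 377 with a median of 197 at 26 weeks. Its medians were in the order of age, with 4 of 6 mice at 26 weeks above all at 14 weeks. It rose by 1.01 ± 0.28 on the log2 scale from 14 to 26 weeks (adjusted p = 0.0248), a call that was lost without 14 weeks replicates 4 or 6 or 26 weeks replicates 1 or 5 (adjusted p up to 0.0730). The fourth membrane protein, Bst2 or tetherin, which holds budding virus at the cell surface, was scarce: 0 to 3.18 CPM at 14 weeks with a median of 2.64, 0 to 4.31 with a median of 1.54 at 20 weeks, and 0.829 to 7.54 with a median of 4.29 at 26 weeks. Its change from 14 to 26 weeks was 1.06 ± 0.95 (adjusted p = 0.589), so a difference was not detectable.

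The small hydrophobic proteins Ifi27 and Ifi27l2a, whose genes are neighbours on chromosome 12 (103434211 to 103440239 and 103442167 to 103443680), were lowest at 20 weeks and highest at 26 weeks by their medians. Ifi27 ranged from 113 to 175 CPM with a median of 132 at 14 weeks, from 46.7 to 179.6 with a median of 90.3 at 20 weeks, and from 110.2 to 277 with a median of 242 at 26 weeks. Between 20 and 26 weeks it rose by 1.15 ± 0.27 on the log2 scale (adjusted p = 0.00651), with 4 of 6 mice at 26 weeks above all at 20 weeks. Its log2 change from 14 to 26 weeks was 0.68 ± 0.27 (adjusted p = 0.118). This change passed in limma-voom with quality weights (adjusted p = 0.00816) and in a fit of the 2 ages alone (0.0285). It passed with a filter of 10 CPM in 6 libraries (0.0406) and without 26 weeks replicate 4 (0.0395), but in no other fit. Ifi27l2a ranged from 10.5 to 19.0 CPM with a median of 16.3 at 14 weeks, from 5.19 to 14.0 with a median of 10.1 at 20 weeks, and from 7.15 to 65.8 with a median of 31.6 at 26 weeks. In 5 of 6 mice at 26 weeks it was above every younger mouse, and replicate 4 was below every mouse at 14 weeks. The log2 change was 1.81 ± 0.39 from 20 to 26 weeks (adjusted p = 0.00372) and 1.27 ± 0.39 from 14 to 26 weeks (adjusted p = 0.0394). The second of these calls was lost without any 1 of 10 libraries, namely each of the 14-week replicates and 26 weeks replicates 1, 2, 5 and 6 (adjusted p up to 0.118).

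**Figure D2:**
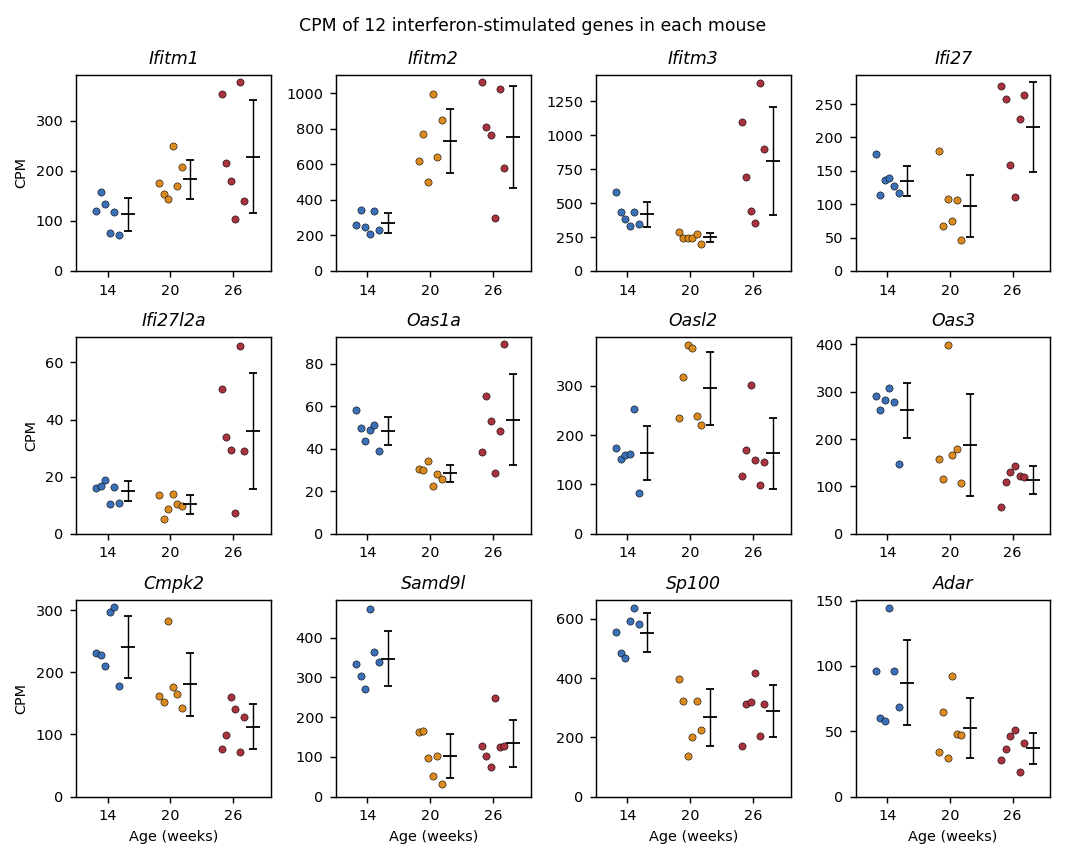
CPM (vertical axis, from 0) of 12 genes of the set in each mouse at 14, 20 and 26 weeks (horizontal axis); each point is 1 mouse, and the bar beside each group is the mean with its SD over 6 mice. Ifitm2 is higher at both later ages, Ifitm3 is lowest at 20 weeks, where it runs from 201 to 291 CPM, and Samd9l and Sp100 are lower at both later ages without overlap with 14 weeks.

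Among the other antiviral effectors, 3 fell from 14 to 26 weeks: Samd9l, Cmpk2 and Adar. Samd9l, a cytoplasmic antiviral factor (chromosome 6, 3372257 to 3399572), ranged from 271 to 472 CPM with a median of 336 at 14 weeks, from 32.3 to 165 with a median of 99.4 at 20 weeks, and from 74.9 to 247 with a median of 126 at 26 weeks. Every mouse at both later ages was below every mouse at 14 weeks. It fell by 1.77 ± 0.34 on the log2 scale by 20 weeks (adjusted p = 0.00255) and by 1.37 ± 0.33 by 26 weeks (adjusted p = 0.0121), and its change from 20 to 26 weeks was 0.39 ± 0.33 (adjusted p = 0.478).

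Cmpk2, a mitochondrial nucleotide kinase, stands head to head with Rsad2 on chromosome 12 (26469204 to 26479837 and 26442746 to 26456452). Cmpk2 ranged from 178 to 304 CPM with a median of 229 at 14 weeks, from 143 to 282 with a median of 164 at 20 weeks, and from 71.0 to 160.3 with a median of 113 at 26 weeks. The 26-week mice were all below the 14-week mice, as were 5 of 6 at 20 weeks, the exception being replicate 3, the library that stood apart. The log2 change was -1.10 ± 0.22 from 14 to 26 weeks (adjusted p = 0.00399) and -0.68 ± 0.21 from 20 to 26 weeks (adjusted p = 0.0358). The latter call was lost without 20 weeks replicates 3 or 4 or 26 weeks replicates 1, 2 or 5 (adjusted p up to 0.0908).

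Rsad2, which encodes viperin, an enzyme that makes a chain-terminating nucleotide, ranged from 82.4 to 227 CPM with a median of 171 at 14 weeks, from 90.9 to 344 with a median of 157 at 20 weeks, and from 78.2 to 210.4 with a median of 109.8 at 26 weeks. Its ages overlapped widely, and its log2 change from 14 to 26 weeks was -0.30 ± 0.32 (adjusted p = 0.676). Its difference from the change of Cmpk2 was not tested.

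Adar edits adenosine to inosine in double-stranded RNA (chromosome 3, 89715022 to 89753446). It ranged from 57.7 to 144 CPM with a median of 82.5 at 14 weeks, from 29.7 to 92.3 with a median of 47.7 at 20 weeks, and from 18.6 to 51.1 with a median of 38.7 at 26 weeks. All 26-week mice were below all 14-week mice, and the log2 change between these ages was -1.24 ± 0.30 (adjusted p = 0.0122). Exons of Chrnb2 on the opposite strand cover 16.8% of the Adar exon bases, and without a stated strand setting reads there cannot be told apart.

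Eif2ak2, the kinase PKR that stops translation on double-stranded RNA, was close to the detection limit. It ranged from 2.91 to 8.27 CPM with a median of 4.87 at 14 weeks, from 0 to 3.26 with a median of 0.306 at 20 weeks, and from 1.67 to 9.89 with a median of 4.67 at 26 weeks. Of the 20-week mice 5 of 6 were below all 14-week mice. The log2 change from 20 to 26 weeks was 2.73 ± 0.88 (adjusted p = 0.0397), and that from 14 to 20 weeks was -2.75 ± 0.88 (adjusted p = 0.0529). The call from 20 to 26 weeks was lost without any 1 of 11 libraries, namely 14 weeks replicates 3, 5 and 6, 20 weeks replicates 1, 2, 5 and 6, and 26 weeks replicates 1, 4, 5 and 6 (adjusted p up to 0.0982). Isg20, an exonuclease, passed no test, with log2 changes of 0.48 ± 0.27 from 14 to 20 weeks and 0.46 ± 0.27 from 14 to 26 weeks.

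The oligoadenylate synthetase genes on chromosome 5 did not share a direction. These enzymes answer double-stranded RNA by making the short oligoadenylates that switch on RNase L. Oas1a (120896256 to 120907521) ranged from 39.0 to 58.4 CPM with a median of 49.5 at 14 weeks, from 22.7 to 34.2 with a median of 29.2 at 20 weeks, and from 28.6 to 89.2 with a median of 51.0 at 26 weeks. All mice at 20 weeks were below all mice at 14 weeks, and 5 of 6 mice at 26 weeks were above all mice at 20 weeks. The log2 change was -0.77 ± 0.23 from 14 to 20 weeks (adjusted p = 0.0340) and 0.91 ± 0.23 from 20 to 26 weeks (adjusted p = 0.00874). The first of these calls was lost without 14 weeks replicates 1, 2, 4 or 5 or 20 weeks replicates 4, 5 or 6 (adjusted p up to 0.0837). The near copy Oas1g holds 40.9% of the 100-base windows of Oas1a, so the level of Oas1a is uncertain to that extent.

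Oas3, of the same cluster (120753098 to 120777661), ranged from 147 to 308 CPM with a median of 279.9 at 14 weeks, from 108 to 398 with a median of 162 at 20 weeks, and from 57.1 to 143 with a median of 121 at 26 weeks. The 26-week mice were all below the 14-week mice. The log2 change was -1.20 ± 0.29 from 14 to 26 weeks (adjusted p = 0.0107) and -0.48 ± 0.28 from 14 to 20 weeks (adjusted p = 0.338). The highest 20-week value belonged to replicate 3, without which the change to 20 weeks was the larger one given above.

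Oasl2, an oligoadenylate synthetase-like gene (114896936 to 114912234), was high at 20 weeks alone by its medians. It ranged from 82.1 to 252 CPM with a median of 160.5 at 14 weeks, from 220.0 to 383 with a median of 278 at 20 weeks, and from 98.1 to 301 with a median of 147 at 26 weeks. It rose by 0.85 ± 0.26 on the log2 scale by 20 weeks (adjusted p = 0.0439) and fell by 0.85 ± 0.26 from 20 to 26 weeks (adjusted p = 0.0315). Each of these calls depended on single libraries. The first was lost without any 1 of 9, namely 14 weeks replicates 1, 2, 3, 4 and 6, 20 weeks replicates 2, 3 and 4, and 26 weeks replicate 4 (adjusted p up to 0.101). The second was lost without any 1 of 8, namely 20 weeks replicates 2, 3 and 4 and 26 weeks replicates 1, 2, 4, 5 and 6 (adjusted p up to 0.0788). Oas2 and Oasl1, which restrains translation of Irf7, passed no test.

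Isg15, Usp18 and Herc6, of the system that joins a small protein to others and removes it, did not pass the test in any comparison. Ube2l6, of the same system but not of the set, rose to 26 weeks and is given below. Isg15, the ubiquitin-like protein that is joined to other proteins after induction (chromosome 4, 156199424 to 156200818), ranged from 14.0 to 34.9 CPM with a median of 25.4 at 14 weeks, from 25.5 to 31.9 with a median of 27.9 at 20 weeks, and from 14.1 to 46.8 with a median of 39.2 at 26 weeks. At 26 weeks 4 of 6 mice were above every younger mouse and replicate 4 was near the lowest 14-week value. The log2 change from 14 to 26 weeks was 0.54 ± 0.27 (adjusted p = 0.238). Usp18, which removes Isg15 and damps the receptor, ranged from 13.2 to 64.0 CPM with a median of 30.4 at 14 weeks, from 1.24 to 49.0 with a median of 21 at 20 weeks, and from 7.54 to 50.3 with a median of 20.1 at 26 weeks. Herc6, the mouse ligase for Isg15, was at or under 31.1 CPM in all libraries.

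The IFIT family holds proteins that bind RNA. Its 3 genes in the set lie in a cluster on chromosome 19, with 7112 bases between Ifit2 and Ifit3 and 52140 between Ifit3 and Ifit1. Ifit1 ranged from 20.4 to 79.8 CPM with a median of 47.1 at 14 weeks, from 18 to 63.6 with a median of 47.4 at 20 weeks, and from 7.58 to 44.9 with a median of 24.0 at 26 weeks. Ifit3 ranged from 26.4 to 107 CPM with a median of 45.7 at 14 weeks, from 26.0 to 76.8 with a median of 50.9 at 20 weeks, and from 11.3 to 44.8 with a median of 31.0 at 26 weeks. Both had their lowest medians at 26 weeks, with overlap between all ages. From 14 to 26 weeks the log2 changes were -0.85 ± 0.41 for Ifit1 (adjusted p = 0.218), -0.82 ± 0.37 for Ifit3 (adjusted p = 0.178) and -1.74 ± 0.72 for Ifit2 (adjusted p = 0.134). The near copy Ifit3b holds 31.7% of the 100-base windows of Ifit3.

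The transcription factors of the response were present at all ages. Irf9, the DNA-binding part of the activated complex (chromosome 14, 55603571 to 55610030), ranged from 124 to 221 CPM with a median of 193 at 14 weeks, from 141 to 215 with a median of 200.4 at 20 weeks, and from 91.8 to 175 with a median of 127 at 26 weeks. It fell by 0.54 ± 0.16 on the log2 scale from 20 to 26 weeks (adjusted p = 0.0285), with 5 of 6 mice at 26 weeks below all mice at 20 weeks. This call was lost without 20 weeks replicates 2, 4 or 6 or 26 weeks replicates 1, 2 or 5 (adjusted p up to 0.0730). The change of Irf9 from 14 to 26 weeks was -0.48 ± 0.16 (adjusted p = 0.0635).

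Irf7, the factor that amplifies interferon production, ranged from 54.9 to 119 CPM with a median of 95.5 at 14 weeks, from 93.0 to 189 with a median of 114 at 20 weeks, and from 40.2 to 118 with a median of 78.5 at 26 weeks. From 20 to 26 weeks its log2 change was -0.65 ± 0.25 (adjusted p = 0.0797), and DESeq2 gave -0.65 (adjusted p = 0.0437). Stat2, the partner of Irf9, ranged from 4.38 to 31.6 CPM with a median of 23.5 at 14 weeks, from 0 to 38 with a median of 15.3 at 20 weeks, and from 8.24 to 18 with a median of 14.8 at 26 weeks. The spread of Stat2 within an age exceeded the distance between ages, and its log2 change from 14 to 26 weeks was -0.69 ± 0.70 (adjusted p = 0.642).

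Sp100, a protein of nuclear bodies that represses transcription (chromosome 1, 85649988 to 85709998), was the one of this group that changed from 14 weeks. It ranged from 468 to 638 CPM with a median of 569 at 14 weeks, from 138 to 398 with a median of 273 at 20 weeks, and from 172 to 416 with a median of 312 at 26 weeks. No mouse at the later ages reached the lowest 14-week value. The log2 change was -1.05 ± 0.23 at 20 weeks (adjusted p = 0.00625) and -0.94 ± 0.23 at 26 weeks (adjusted p = 0.0128).

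**Figure D3:**
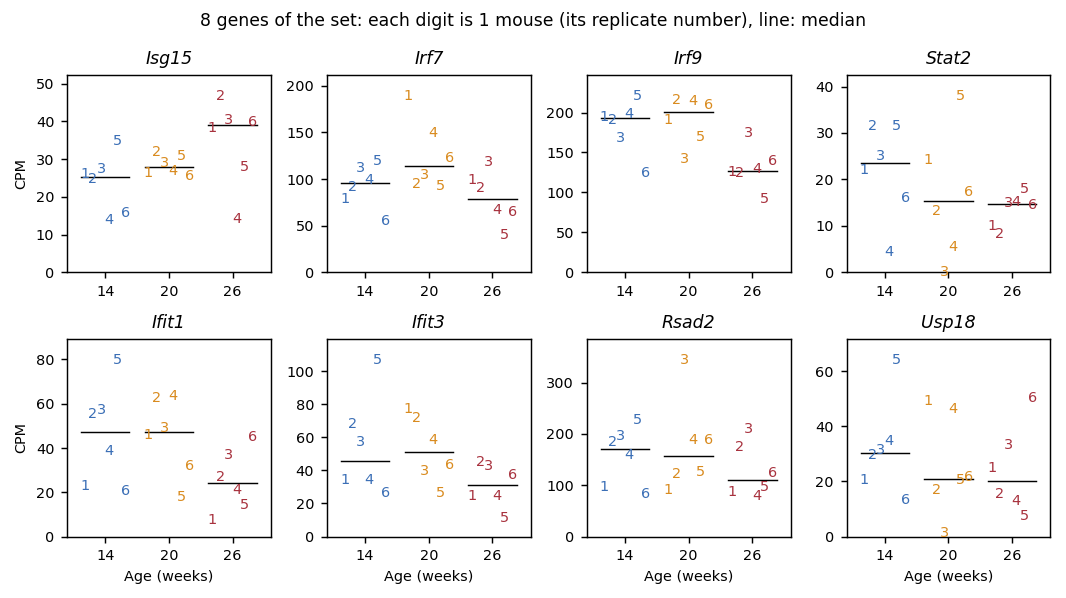
CPM (vertical axis, from 0) of 8 genes of the set that include Isg15, Ifit1, Ifit3 and 3 response factors at 14, 20 and 26 weeks (horizontal axis), with each mouse drawn as its replicate number and the median of 6 mice as a line. The ages overlap for each of the 8 genes, and replicate 5 at 14 weeks gives the highest 14-week value for 7 of them, Stat2 being the exception by a narrow margin.

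Among the remaining families, Trim25, the ubiquitin ligase that activates the RNA sensor RIG-I (chromosome 11, 88999376 to 89020293), ranged from 51.1 to 96.0 CPM with a median of 67.9 at 14 weeks, from 35.9 to 70.8 with a median of 49.5 at 20 weeks, and from 64.5 to 93.2 with a median of 74.9 at 26 weeks. It rose by 0.60 ± 0.18 on the log2 scale from 20 to 26 weeks (adjusted p = 0.0314), a call lost without 20 weeks replicates 5 or 6 or 26 weeks replicates 1 or 5 (adjusted p up to 0.0693). Parp14, a mono-ADP-ribosyltransferase, ranged from 8.66 to 27.4 CPM with a median of 16.4 at 14 weeks, from 0 to 11.8 with a median of 2.95 at 20 weeks, and from 2.78 to 37.5 with a median of 14.7 at 26 weeks. The 20-week mice were low, 5 of 6 being below all 14-week mice. The log2 change of Parp14 was 2.21 ± 0.72 from 20 to 26 weeks (adjusted p = 0.0412) and -2.15 ± 0.72 from 14 to 20 weeks (adjusted p = 0.0634). Its call was lost without any 1 of 11 libraries, namely 14 weeks replicates 3, 4 and 5, 20 weeks replicates 1, 2, 4 and 6, and 26 weeks replicates 1, 2, 5 and 6 (adjusted p up to 0.114).

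Slfn1, a Schlafen gene that restrains growth in lymphocytes (chromosome 11, 83116849 to 83122670), ranged from 449.7 to 651 CPM with a median of 634 at 14 weeks, from 409.5 to 712 with a median of 454 at 20 weeks, and from 356 to 534 with a median of 417 at 26 weeks. It fell by 0.51 ± 0.14 on the log2 scale from 14 to 26 weeks (adjusted p = 0.0287), with 5 of 6 mice at 26 weeks below all at 14 weeks. The call was lost without any 1 of 9 libraries, namely 14 weeks replicates 1, 2, 3, 4 and 5 and 26 weeks replicates 1, 3, 5 and 6 (adjusted p up to 0.0905). The remaining 15 tested genes (Isg20, Ifit2, Ifi35, Oas2, Oasl1, Rtp4, Xaf1, Parp9, Parp12, Dtx3l, Trim30a, Trim21, Herc6, Slfn5 and Epsti1) passed no test in any comparison, and their log2 changes ran from -1.96 (Herc6, 20 to 26 weeks) to 0.88 (Oas2, 14 to 20 weeks). The most abundant of them per kilobase was Rtp4, a Golgi chaperone, at 64.0, 75.9 and 73.2 CPM per kilobase at the 3 ages, and its log2 change from 14 to 26 weeks was 0.19 ± 0.27. Parp9 and Dtx3l, which encode partner proteins and share 458 exon bases on opposite strands, changed by -0.43 ± 0.33 and -0.31 ± 0.53 between the same ages.

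Calls that held in each of the 18 fits that left out 1 library and in each of the 8 other settings tried were those of Ifitm2, Samd9l and Sp100 from 14 to 20 weeks, of Ifitm2, Cmpk2, Oas3, Samd9l, Adar and Sp100 from 14 to 26 weeks, and of Ifitm3, Ifi27l2a, Ifi27 and Oas1a from 20 to 26 weeks. Among the other calls, limma-voom with quality weights ended those of Oas1a and Oasl2 from 14 to 20 weeks and of Oasl2, Cmpk2 and Parp14 from 20 to 26 weeks (adjusted p from 0.0605 to 0.141). A fit of the 2 ages alone ended those of Irf9, Trim25, Cmpk2, Eif2ak2 and Parp14 from 20 to 26 weeks (adjusted p from 0.0531 to 0.112). With no filter on low counts the calls of Oas1a from 14 to 20 weeks, of Slfn1 and Ifi27l2a from 14 to 26 weeks, and of Irf9, Cmpk2 and Eif2ak2 from 20 to 26 weeks were lost (adjusted p from 0.0553 to 0.0674), and with a stricter filter that of Slfn1 (0.0503). The log2 change of Ifitm2 from 14 to 20 weeks stayed between 1.27 and 1.51 over these settings, and that of Samd9l between -2.02 and -1.59. Some of these fits also called changes that the main fit did not. From 14 to 20 weeks these were the changes of Parp14, Ifitm1, Ifitm3, Eif2ak2, Oas3 and Slfn1. From 14 to 26 weeks they were those of Ifi27, Ifit2 and Irf9, and from 20 to 26 weeks those of Oasl1, Irf7, Xaf1 and Herc6. Among the 40 genes, the groups did not overlap for 5 from 14 to 20 weeks (Oas1a, Samd9l, Ifitm2, Ifitm3 and Sp100), for 5 from 14 to 26 weeks (Oas3, Samd9l, Cmpk2, Adar and Sp100) and for 1 from 20 to 26 weeks (Ifitm3). Of all tested genes, 6.90%, 6.76% and 5.96% did not overlap in these comparisons.

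The genes that rose from 14 to 26 weeks were short and those that fell were mostly long. Merged exons measured 463 bases for Ifi27l2a, 655 for Ifitm2, 678 for Ifitm3 and 1094 for Ifitm1, against 8118 for Adar, 7556 for Sp100, 7069 for Oas3, 5427 for Samd9l and 4163 for Cmpk2, with Slfn1 (1864 bases) as the short gene that fell. Across genes, which are not independent replicates, Spearman's rho between length and the log2 change from 14 to 26 weeks was -0.65 over the 40 genes and -0.31 over 9941 tested genes with a length. From 20 to 26 weeks rho was weaker, at -0.32 and -0.14. Parp14 (9306 bases), Trim25 (5754 bases) and Eif2ak2 (5113 bases) were among the genes that rose from 20 to 26 weeks. From 14 to 26 weeks the median log2 change of all tested genes was 0.60 for those under 1000 bases, 0.57 from 1000 to 2000 bases and -0.21 for those above 8000 bases.

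Set beside genes of similar length, Ifitm2 changed by 1.48 from 14 to 26 weeks where the median of 210 such genes was 0.62, and Ifitm3 by 0.96 where the median of 220 was also 0.62. Isg15, at 0.54, was below the 0.80 of its length group, while Samd9l, at -1.37, stood against -0.13 and Cmpk2, at -1.10, against -0.03. With a correction of the levels for length in each library, 1 gene of the set remained higher from 14 to 26 weeks, Ifitm2 (0.89, adjusted p = 0.00820), and the same 6 were lower. Of 9941 genes tested with the correction, 799 were called, 337 of them higher, against 1111 and 551 without it. Ifitm1 (0.48, adjusted p = 0.191), Ifitm3 (0.34, adjusted p = 0.278) and Ifi27l2a (0.62, adjusted p = 0.267) then no longer passed. From 20 to 26 weeks Ifitm3 (adjusted p = 0.000177) and Ifi27l2a (adjusted p = 0.00617) still passed with the correction.

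**Figure D4:**
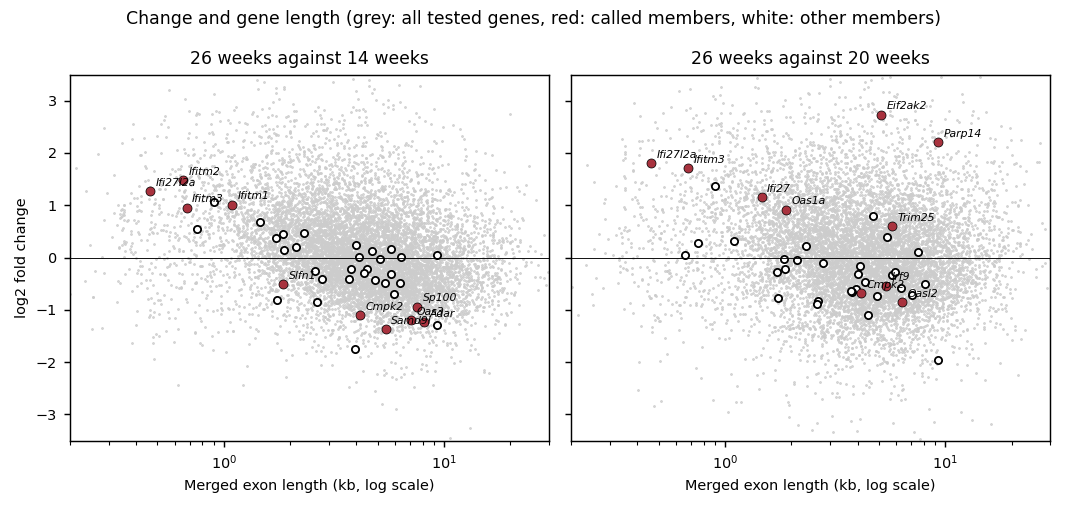
Log2 fold change (vertical axis) against merged exon length in kilobases (horizontal log axis) from 14 to 26 weeks and from 20 to 26 weeks; grey points are all tested genes within the axes, red points genes of the set at an adjusted p under 0.05, white points its other genes. From 14 to 26 weeks the short genes Ifi27l2a, Ifitm2, Ifitm3 and Ifitm1 are above 0 and the long genes Adar, Sp100 and Oas3 are below it, as the grey points tilt the same way (rho -0.31). From 20 to 26 weeks the tilt is weaker (rho -0.14), and the long genes Parp14, Trim25 and Eif2ak2 are above 0.

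Between mice of the same age, the set as a whole varied together mainly at 14 weeks, by the median over its pairs. Over the 780 pairs of its 40 genes, the median correlation of deviations from the age mean was 0.34 at 14 weeks against 0.003 over all pairs of tested genes, 0.064 against 0.047 at 20 weeks, and 0.061 against -0.001 at 26 weeks. These correlations rest on 6 libraries per age, whose genes share library and depth, and are given as a description. At 14 weeks, replicate 5 was above the age mean in 38 of the 40 genes and replicate 6 in 6 of them. Replicate 5 had the highest 14-week value for Isg15, Usp18, Irf7, Irf9, Rsad2, Ifit1, Ifit3, Oasl2, Cmpk2 and Sp100, and replicate 6 the lowest for Usp18, Irf7, Irf9, Rsad2, Ifit1, Ifit3, Oasl2, Cmpk2 and Ifitm1. These 2 libraries had 10789549 and 11587679 counts, inside the 14-week range of 10252056 to 12437984.

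At 26 weeks the number of genes above the age mean ran from 15 (replicate 4) to 28 (replicate 6). Replicate 3, with the most counts (17256379), was highest for Irf7, Irf9, Oas2, Oasl1, Oasl2, Rsad2, Rtp4, Parp9, Herc6, Cmpk2, Slfn5 and Epsti1. It was lowest for Ifit2, Samd9l, Parp14 and Trim25, and was above the age mean in 25 genes. Replicate 4 was lowest for Isg15, Ifi27, Ifi27l2a, Oas1a, Ifitm1, Ifitm2 and Ifitm3, while it was highest for Samd9l, Oas3, Adar and Sp100. Replicate 5, with the fewest counts (5546624), was highest for Ifi27l2a, Ifitm1 and Ifitm3 and lowest for Irf7, Irf9, Usp18, Oasl2, Cmpk2, Adar and Slfn1.

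**Figure D5:**
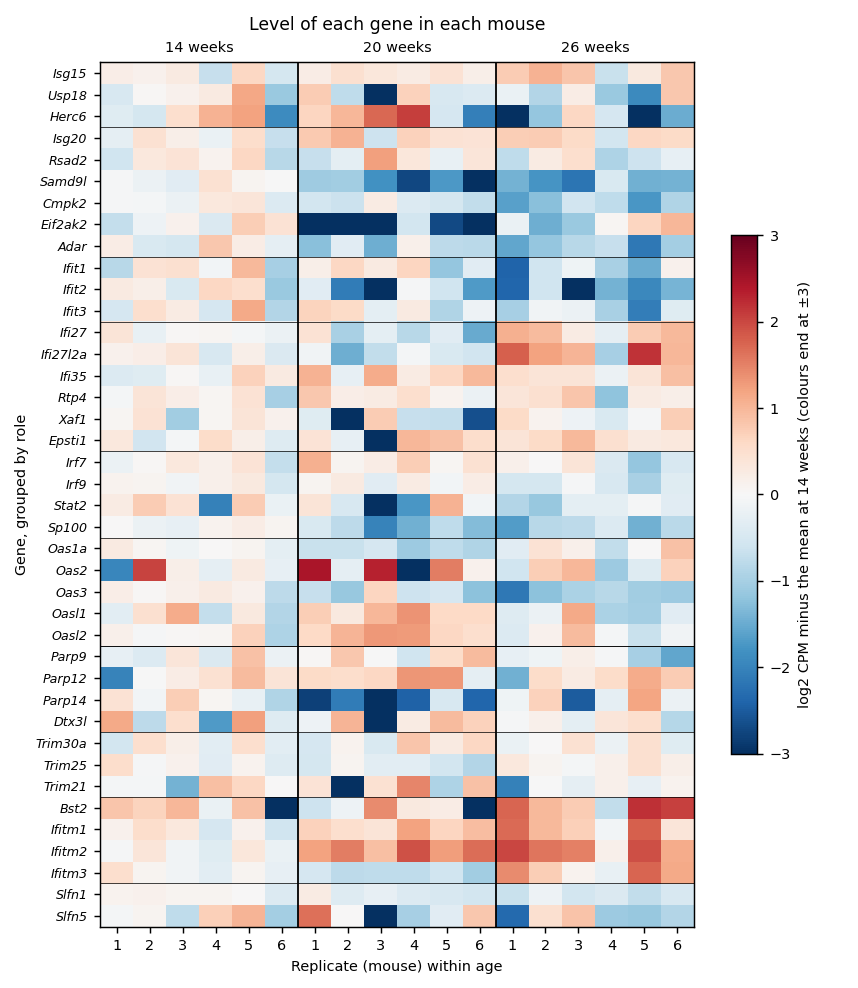
Log2 CPM of each of the 40 tested genes (vertical axis, grouped by role) in each mouse (horizontal axis, replicates 1 to 6 at 14, 20 and 26 weeks), minus the mean at 14 weeks; red is higher and blue lower, with colours ending at ±3. Replicate 5 at 14 weeks is red in most genes and replicate 6 blue, while the later ages show red for Ifitm2 and blue for Samd9l and Sp100.

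The wider pathway was read from a list of 87 other genes, of which 62 could be tested. From 14 to 20 weeks 8 of the 62 rose and 1 fell, from 14 to 26 weeks 3 rose and 4 fell, and from 20 to 26 weeks 3 rose and 14 fell, where 10.2%, 11.0% and 16.0% of all tested genes were called. The median log2 changes were -0.13, -0.16 and -0.26, against -0.02, 0.04 and 0.05 over all tested genes. Of 6 interferon genes listed, Ifnk alone had a row, and it was at 0 in all libraries of 14 and 20 weeks and at most 0.355 CPM at 26 weeks.

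Of the 4 receptor and kinase genes, 2 fell. Jak1 ranged from 565 to 694 CPM at 14 weeks, from 445 to 655 at 20 weeks and from 298 to 446 at 26 weeks, and its log2 change was -0.81 ± 0.13 from 14 to 26 weeks (adjusted p = 0.00149) and -0.61 ± 0.13 from 20 to 26 weeks (adjusted p = 0.00298). Ifnar1, with medians of 74.9, 123 and 60.0 CPM at the 3 ages, fell by 1.04 ± 0.33 from 20 to 26 weeks (adjusted p = 0.0358). Ifnar2 passed no test, with medians of 115, 116 and 104 CPM and a log2 change of -0.10 ± 0.13 from 14 to 26 weeks (adjusted p = 0.722).

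Among 5 tested transcription factors outside the set, Irf1 (0.78 ± 0.22, adjusted p = 0.0297) and Irf3 (1.21 ± 0.36, adjusted p = 0.0377) rose from 14 to 20 weeks on the log2 scale. Irf5 (-1.14 ± 0.33, adjusted p = 0.0242) and Irf2 (-0.59 ± 0.19, adjusted p = 0.0420) fell from 20 to 26 weeks. Of 8 inhibitors of the pathway, Socs3, which blocks kinase signalling after cytokines such as interleukin-6 and G-CSF, showed the widest swing. Socs3 ranged from 29.0 to 88.3 CPM at 14 weeks, from 208 to 463 at 20 weeks and from 41.9 to 141 at 26 weeks, so the 20-week mice were above all others. It rose by 2.27 ± 0.33 (adjusted p = 0.000379) and then fell by 1.82 ± 0.33 (adjusted p = 0.00103). Ptpn1, Ptpn6 and Pias1 fell from 20 to 26 weeks, by 0.59, 0.55 and 0.60.

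Of 13 sensors and adaptors upstream of interferon, Unc93b1, the chaperone of the endosomal Toll-like receptors, rose by 1.05 ± 0.21 to 20 weeks (adjusted p = 0.00337) and fell by 1.1 ± 0.2 from there to 26 weeks (adjusted p = 0.00129). Myd88, the adaptor of those receptors, followed with 0.83 ± 0.17 (adjusted p = 0.00447) and -0.75 ± 0.17 (adjusted p = 0.00603). Ddx58, which encodes RIG-I, fell by 1.10 ± 0.24 from 14 to 26 weeks (adjusted p = 0.00602). Mb21d1, which encodes the DNA sensor cGAS, passed the test at both later ages against 14 weeks from very low levels, being at 0 in all 14-week libraries and at most 5.32 CPM at 20 weeks and 3.55 CPM at 26 weeks.

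Of 32 tested near copies and other induced genes, Ifitm6, a relative of the Ifitm genes above, had medians of 567, 216 and 1443 CPM at the 3 ages. It rose by 1.30 ± 0.38 from 14 to 26 weeks (adjusted p = 0.0313) and by 2.32 ± 0.39 from 20 to 26 weeks (adjusted p = 0.000680). Ube2l6, the conjugating enzyme for Isg15, rose by 0.88 ± 0.22 from 14 to 26 weeks (adjusted p = 0.0150) and by 1.29 ± 0.23 from 20 to 26 weeks (adjusted p = 0.000902). Ddx60, a helicase, fell by 1.30 ± 0.25 from 14 to 26 weeks (adjusted p = 0.00370) and by 0.94 ± 0.25 from 20 to 26 weeks (adjusted p = 0.0140). Nt5c3, a nucleotidase, fell by 1.08 ± 0.28 to 20 weeks (adjusted p = 0.0160) and rose by 1.54 ± 0.28 from there to 26 weeks (adjusted p = 0.00110).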

How the data were processed

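Gene counts of 18 libraries, 6 mice at each of 14, 20 and 26 weeks, were used as deposited, and the mice are biological replicates per the labels. Per the submitters' processing notes the authors worked with the GRCm38.p4 build, HTSeq 0.6.1, STAR 2.4.2a, Trimmomatic 0.32, DESeq and DESeq2 1.12.3. Annotation release and strand setting: not given in the sources used here. Reads were single-end and 100 bases long, from NexteraXT libraries, per the labels. Total counts per library ran from 5546624 to 17256379, and the tests measure the spread between mice of one age.

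Tests on the counts used R 4.3.3 and edgeR 4.0.16 with TMM scaling, filterByExpr by age, 1 quasi-likelihood fit over all 18 libraries with age as the term, contrasts of the 3 ages, and Benjamini-Hochberg adjustment over 10104 genes with a threshold of 0.05. CPM use TMM-scaled library sizes, and correlations use log2 CPM with a prior count of 2. The procedure was tested on simulated data. Alternatives were RLE scaling, DESeq2 1.42.0, limma-voom (limma 3.58.1), no filter, a filter of 10 CPM in 6 libraries, the 2 ages alone, a term for replicate number, a loess correction for gene length (span 0.5) and leaving out each library. Gene lengths and coordinates are from GENCODE M21 (GRCm38), in which 16809 of 17941 symbols matched directly, 460 by a synonym and 672 not at all. Promoter sequences are from RefSeq.

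The members and the gene lists were chosen with earlier results of these data known. Genes that passed the test in any comparison, and Isg15, Irf7, Irf9, Stat2, Ifit1, Ifit3, Oasl2, Rsad2, Usp18, Ifitm3 and Bst2, are given in full, the others by ranges and counts; from the pathway list up to 4 genes per role that passed are named by smallest adjusted p, with Ifnar1 and Ifnar2 in any case. Some results of the lists are not reported here.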

Additional observations from a re-analysis of the deposited data

Results flagged for a closer look

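Of 75 groups of 6 mice (25 genes at 3 ages), 9 had a highest or lowest log2 CPM whose gap to the nearest other mouse took up more of the range of the group than Dixon's 95% critical value for groups of 6. For groups drawn from a normal distribution, chance gives such a mark in about 1 in 20. The 75 groups come from the same 18 libraries and are not independent of each other.

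At 14 weeks, replicate 6 was the lowest by such a gap for Oas3 (147 CPM), Slfn1 (449.7 CPM) and Bst2 (0 CPM), and replicate 4 for Stat2 (4.38 CPM). At 20 weeks, replicate 3, the library with counts in the fewest genes, was the lowest for Stat2 (0 CPM) and Usp18 (1.24 CPM) and the highest for Cmpk2 (282 CPM). At 26 weeks, replicate 4 was the lowest for Ifi27l2a (7.15 CPM) and replicate 1 for Oas3 (57.1 CPM).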

How the results depend on the processing

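No call of a gene of the set changed direction under any alternative. Of all tested genes, edgeR called 1030 from 14 to 20 weeks, 1111 from 14 to 26 weeks and 1617 from 20 to 26 weeks. DESeq2 called 1727, 1808 and 2553, and from 14 to 26 weeks 1081 of its 1808 calls were higher, against 551 of 1111. Limma-voom with quality weights called 2633 and the fit of the 2 ages alone 1710 from 14 to 26 weeks. For the set, DESeq2 found 5 lower from 14 to 20 weeks in place of 3. Limma-voom found 1 higher from 14 to 20 weeks in place of 2, and 1 lower from 20 to 26 weeks in place of 3. The 2 ages alone gave 4 higher in place of 7 and 1 lower from 20 to 26 weeks, no filter gave 1 lower there, and the length correction gave 1 higher in place of 4 from 14 to 26 weeks; the cause was not tested. Leaving out 1 library gave 652 to 1544 called genes from 14 to 26 weeks. From 14 to 20 weeks it gave 1 to 2 of the set higher and 2 to 6 lower, from 14 to 26 weeks 1 to 5 higher, and from 20 to 26 weeks 4 to 7 higher and 0 to 6 lower. The lowest count of 0 lower came without 20 weeks replicate 4 or 26 weeks replicates 1, 2 or 5, and the highest of 6 without 26 weeks replicate 3. The labels do not say that equal replicate numbers at different ages link mice or libraries. Of 18 same-numbered pairs, 1 correlated above 0.1 (-0.0527 to 0.136), and 6 of 18 libraries correlated best with one of their own number. Whether same-numbered libraries share a batch was not tested. With the replicate block, 6 of the set were lower from 14 to 20 weeks and 2 higher from 14 to 26 weeks, while 962, 946 and 1573 genes were called in all, and the calls of Ifitm1 (adjusted p = 0.0530) and Ifi27l2a (0.0922) from 14 to 26 weeks and of Irf9 (0.0622) from 20 to 26 weeks were lost. Bst2 and Eif2ak2 rest on 483 and 669 counts over all 18 libraries.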

Other observations

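Ifi202b, an interferon-inducible gene of the region on chromosome 1 that has been linked to lupus in New Zealand mice, was named after its values were seen. It was at 0 in 5 of 6 libraries at each age, and the single library with counts reached 1.02 CPM at 14 weeks, 1.81 CPM at 20 weeks and 1.46 CPM at 26 weeks.

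Among genes of the set the spread between mice of one age differed widely. The fitted biological coefficient of variation was smallest for Slfn1 (0.195), Irf9 (0.215) and Trim25 (0.242) and largest for Bst2 (0.989), Herc6 (0.937) and Slfn5 (0.909), against a median of 0.561 over all tested genes. Genes with a small coefficient passed the test on changes as small as 0.51 on the log2 scale (Slfn1), while Herc6 did not pass on a change of -1.96 from 20 to 26 weeks.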
